A study of Mus musculus with 14 samples.

Results

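The genes described here code for transporters that move inorganic ions, metals and water across epithelial membranes. They were chosen by symbol: every probe of the array whose gene symbol on the platform table begins with Slc4a, Slc8a, Slc9a, Slc11a, Slc12a, Slc20a, Slc24a, Slc26a, Slc30a, Slc34a, Slc39a, Slc40a or Slc41a, or names a pump subunit of the Atp1a, Atp1b, Atp2a, Atp2b or Atp2c series or an aquaporin (Aqp). The symbol pattern used no measured value, though it was set with earlier results of these data known. It gave 213 probes for 102 of the 19057 genes that carry a single symbol on the platform table, and 64 of the 102 genes passed the detection filter and were tested. The pattern also takes 3 genes that transport nothing themselves: Slc9a3r1 and Slc9a3r2, which code for scaffold proteins that bind sodium-proton exchangers, and Slc4a1ap, which codes for an adaptor protein.

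The 14 arrays were Illumina mouse BeadChips with 1 colour, each holding RNA from cells sorted out of the mammary glands of female FVB/NJ mice, an inbred strain, with no transgene or agent named. The 4 groups were MaSC-enriched cells (CD29hi CD24+, a basal fraction that holds mammary stem cells) from mice at day 12.5 of pregnancy (12.5 dP, n = 4) and from virgin mice (n = 3), and luminal cells (CD29lo CD24+) from 12.5 dP mice (n = 4) and from virgin mice (n = 3). All groups lacked CD45, CD31 and TER119 on the cell surface, which selects against leukocytes, endothelium and erythroid cells. Some marker RNA of each of these cell types was still detected in every group. Each biological replicate was a pool of mice, 4 pools at 12.5 dP and 3 from virgins, and the labels give no age and do not say how many mice a pool held. The sorts were over 90% pure, and at most 250 ng of RNA went into each labelling. The sorted cells are mixtures, so fewer cells of a type and less RNA per cell cannot be told apart in any value below.

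Secretory epithelium of the mammary gland moves calcium, phosphate, zinc, iron, chloride and water into milk. Sodium-potassium ATPase in the membrane holds the sodium gradient that drives most of the coupled carriers, while pumps of the Golgi load calcium and manganese into secretory vesicles. Zinc carriers of the Slc39 family bring zinc into the cytoplasm and those of the Slc30 family take it out, into vesicles or across the cell surface. The middle of pregnancy lies before copious milk secretion, when luminal cells are forming alveoli.

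Between 34.8% and 42.3% of probes were detected per array, and median raw intensity ran between 105 and 165 arbitrary units. The virgin MaSC-enriched arrays were the least alike, with pairwise correlations of 0.909 to 0.942 over all probes tested and a median standard deviation of 0.50 log2 units over the tested members, against 0.978 to 0.988 and 0.22 in the 12.5 dP MaSC-enriched arrays. The summed intensity of 6 basal markers was 78400 to 83600 in 12.5 dP and 64900 to 78900 in virgin MaSC-enriched arrays, and 25300 to 31300 in 12.5 dP and 3700 to 18700 in virgin luminal arrays, where Krt5 was undetected. The sum of 6 luminal markers was 23700 to 32200 in 12.5 dP and 17500 to 28000 in virgin MaSC-enriched arrays, and 73300 to 86300 in 12.5 dP and 81000 to 84400 in virgin luminal arrays. Both populations therefore carried their labelled markers, and the basal sum was higher in 12.5 dP than in virgin luminal arrays. The arrays lay on 4 chips, and virgin MaSC-enriched replicate 2 was alone on its chip. Replicates 1, 2 and 3 of 12.5 dP MaSC-enriched cells lay on chip 3, and replicate 4 on chip 4. The virgin MaSC-enriched arrays lay on chips 1, 2 and 4. Pregnancy and chip can therefore not be fully told apart in MaSC-enriched cells.

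All levels below are log2 normalized intensities, given in replicate order, and a difference is the mean of the first named group minus that of the other, ± its standard error. A gene was called where limma's moderated test, adjusted by Benjamini-Hochberg over all 20906 tested probes, gave an adjusted p below 0.05, and 11350 genes were represented, each by its brightest tested probe. Levels of different genes cannot be ranked on this array, since each probe has its own brightness. Where a gene was detected on no array of a group, its change is given as a lower bound ("at least N-fold"). A member detected only in the group or population where it was high passed the detection filter through those arrays. Its adjusted p is then no separate support for the difference. Among the called members these were Aqp9, Slc20a2, Atp1b2, Slc26a6, Slc26a9 and Slc9a2. The size of a difference depended on the background correction: without it, 81 of the 82 differences behind a call were smaller and 43 moved by over 1.5 times in fold, with no direction turned.

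More members were called with pregnancy in luminal cells (14 of 64) than in MaSC-enriched cells (6 of 64), and the same order held over all genes. In luminal cells 9 of 64 members rose (14.1%) and 5 fell (7.81%) at 12.5 dP, against 10.9% of all tested genes called higher and 10.9% called lower. In MaSC-enriched cells 1 member rose (1.56%) and 5 fell (7.81%), against 2.83% of all genes called higher and 2.31% called lower. The median difference of the members was 0.02 in luminal cells and -0.10 in MaSC-enriched cells, beside 0.05 and 0.03 over all genes. The members' shares of luminal calls lay near the background, and the falls in MaSC-enriched cells made a larger share of the members than of all genes, on a count of 5. Scaling the arrays by their medians instead of quantiles gave 6 higher and 6 lower members in luminal cells and 0 higher and 4 lower in MaSC-enriched cells, and moved the median over all genes in the luminal comparison to -0.16.

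**Figure D1:**
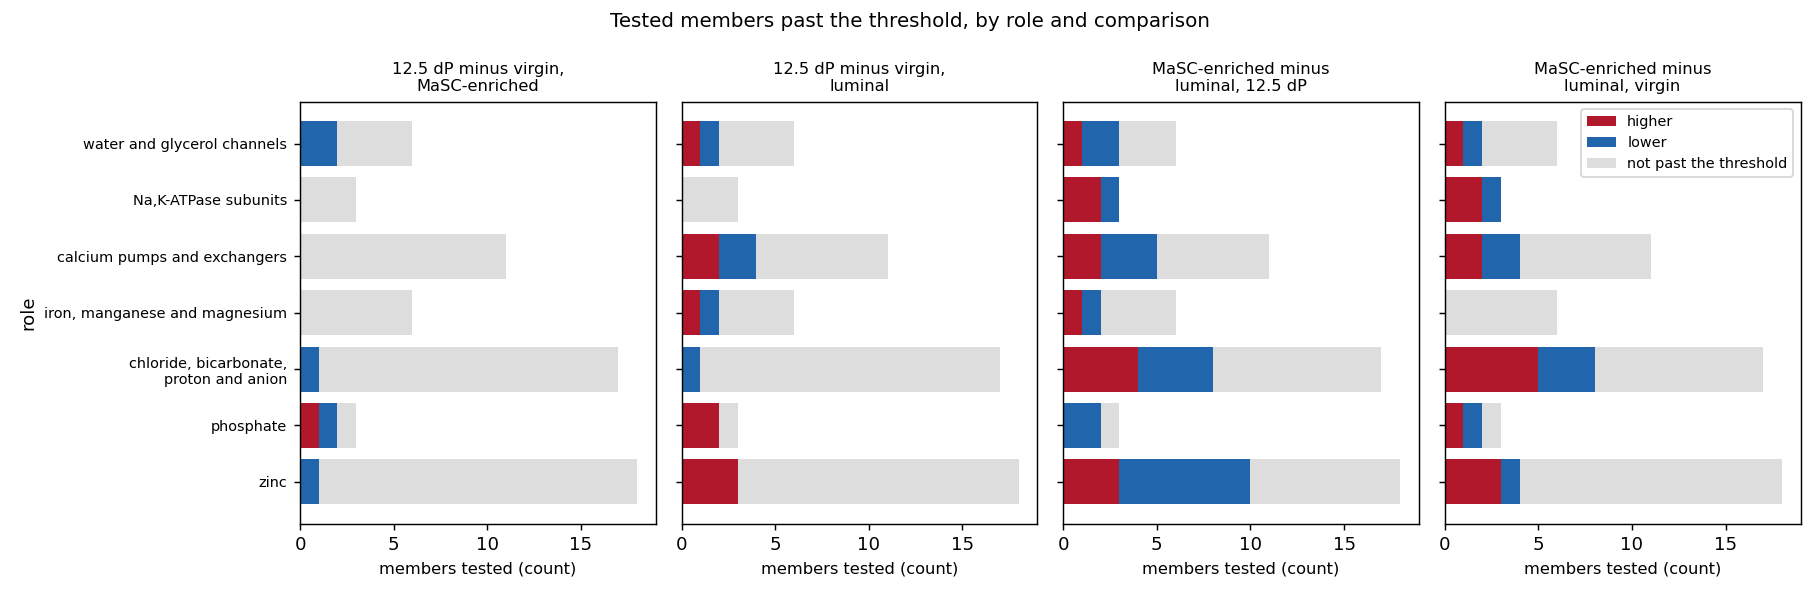
Number of tested members (horizontal axis, count) of each role that were called higher (red), called lower (blue) or not called (grey) in the 4 comparisons, with the threshold at an adjusted p below 0.05. Of 18 zinc carriers, 3 rose in luminal cells at 12.5 dP, where 10.9% of all genes did. At 12.5 dP, 7 of the 18 were called lower in MaSC-enriched than in luminal cells, where 23% of all genes were.

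The rises with pregnancy included zinc and phosphate carriers of luminal cells, and the falls included 2 aquaporins, Aqp5 and Aqp9. The stretches around the RefSeq start sites of Slc30a2, Slc34a2, Aqp5 and Aqp9 are shown because these genes carry that pattern and have an entry in the promoter table used (build GRCm38.p6, 250 bases before to 50 after the start, 5′ to 3′ along the gene's strand as the table gives it). For comparison, 3 motifs were searched on both strands: the STAT site TTCNNNGAA, the steroid receptor half-site TGTTCT and the core of the metal response element, TGCACNC or TGCGCNC. Capitals mark the matches, and matches may overlap. Slc30a2 lies at chr4:134343216-134343515 (plus strand), Slc34a2 at chr5:53049103-53049402 (plus), Aqp5 at chr15:99590778-99591077 (plus) and the upstream of the 2 starts listed for Aqp9 at chr9:71163240-71163539 (minus).
Slc30a2: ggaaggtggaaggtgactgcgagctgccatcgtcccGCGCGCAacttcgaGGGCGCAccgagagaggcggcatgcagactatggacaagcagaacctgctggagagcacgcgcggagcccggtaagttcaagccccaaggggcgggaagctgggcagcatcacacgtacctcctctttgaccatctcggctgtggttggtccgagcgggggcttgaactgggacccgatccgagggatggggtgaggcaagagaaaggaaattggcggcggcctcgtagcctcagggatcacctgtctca
Slc34a2: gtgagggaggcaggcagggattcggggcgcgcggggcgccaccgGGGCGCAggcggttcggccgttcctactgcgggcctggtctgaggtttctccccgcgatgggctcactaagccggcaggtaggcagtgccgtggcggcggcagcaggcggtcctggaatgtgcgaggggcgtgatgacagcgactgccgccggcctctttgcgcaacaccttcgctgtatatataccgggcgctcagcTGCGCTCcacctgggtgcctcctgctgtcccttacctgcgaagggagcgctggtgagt
Aqp5: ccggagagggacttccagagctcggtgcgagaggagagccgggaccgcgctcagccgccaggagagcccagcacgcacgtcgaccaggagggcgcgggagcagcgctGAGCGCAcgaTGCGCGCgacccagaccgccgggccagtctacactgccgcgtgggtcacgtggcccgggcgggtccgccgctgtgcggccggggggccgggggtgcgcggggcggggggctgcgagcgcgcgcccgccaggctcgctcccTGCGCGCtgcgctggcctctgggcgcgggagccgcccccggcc
Aqp9: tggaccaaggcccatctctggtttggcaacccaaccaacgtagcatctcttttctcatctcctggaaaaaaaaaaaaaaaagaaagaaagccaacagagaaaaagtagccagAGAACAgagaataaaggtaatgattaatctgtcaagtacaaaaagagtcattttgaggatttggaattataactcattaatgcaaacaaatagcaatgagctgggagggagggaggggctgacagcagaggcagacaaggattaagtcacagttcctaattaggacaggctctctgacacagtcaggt
The capitals in Slc30a2, Slc34a2 and Aqp5 are 2, 2 and 3 matches to the metal response core, and the single match in Aqp9 is to the steroid receptor half-site. None of the 4 windows held the STAT letters. Of all 32841 promoters of this length, 25.7% held the metal response core, 19% the half-site and 8.3% the STAT site. The 105 promoters listed for 81 of the 102 members held them in 41.9%, 15.2% and 3.81% of cases. The metal response core was thus found in a rising gene and in a falling gene alike, and a match of letters is a description, not a bound site.

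Among the zinc carriers, 3 of 18 tested members rose in luminal cells with pregnancy, where 10.9% of all genes did, and 1 fell in MaSC-enriched cells, where 2.31% did. Slc39a4 codes for a zinc importer of the cell surface, known from the gut, where its loss in humans causes zinc deficiency. It stood at 10.95, 11.25, 10.89 and 11.25 in 12.5 dP luminal arrays and at 7.85, 6.26 and 9.004 in virgin luminal arrays. Every 12.5 dP luminal array was above every virgin one, and the virgin arrays were spread widely. The gene rose 10.4-fold (log2 difference 3.38 ± 0.55, adjusted p = 0.000443). Without virgin luminal replicate 2, the lowest array, the difference was 2.66, without replicate 3 it was 4.03, and without background correction 2.77. In MaSC-enriched cells Slc39a4 had 8.04, 8.57, 7.48 and 7.92 at 12.5 dP and 7.75, 9.82 and 7.93 in virgins, overlapping groups (log2 difference -0.50 ± 0.55, adjusted p = 0.684).

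Slc30a2 codes for the vesicular zinc exporter that loads zinc into milk, and its mutation in human mothers leaves their milk short of zinc. Its levels were 8.41, 8.61, 8.36 and 9.18 in 12.5 dP luminal arrays and 6.43, 5.43 and 6.37 in virgin luminal arrays. All 4 pregnant arrays lay more than 1 log2 unit above the highest virgin array, and 2 of the 3 virgin arrays detected the gene. The rise was 5.89-fold (log2 difference 2.56 ± 0.29, adjusted p = 1.58e-05), and without background correction the difference was 1.56. MaSC-enriched cells held 5.63, 5.94, 6.04 and 5.24 at 12.5 dP and 6.07, 5.72 and 6.12 in virgins, with no call (log2 difference -0.26 ± 0.29, adjusted p = 0.687). Slc39a14, an importer of zinc, iron and manganese, also had higher levels in pregnant luminal cells, with 7.60, 7.88, 7.54 and 8.04 in 12.5 dP luminal arrays against 6.73, 5.43 and 6.79 in virgin luminal arrays. It rose 2.73-fold (log2 difference 1.45 ± 0.30, adjusted p = 0.00257), or by a log2 difference of 0.80 without background correction. Its MaSC-enriched levels, 5.50, 5.79, 6.04 and 5.87 at 12.5 dP and 5.56, 5.23 and 5.79 in virgins, overlapped.

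Slc39a9, a zinc importer also described as an androgen-binding membrane protein, was detected on no 12.5 dP MaSC-enriched array. Its values there were 5.08, 5.44, 5.17 and 5.14, against 6.04, 6.59 and 6.79 in virgin MaSC-enriched arrays. The fall was at least 1.8-fold (adjusted p = 0.0158), and the call was lost when virgin MaSC-enriched replicate 3 was left out (adjusted p = 0.0558) or with array weights (adjusted p = 0.0683). In luminal cells the groups overlapped, at 5.98, 5.95, 6.53 and 6.48 at 12.5 dP and 6.11, 6.98 and 5.89 in virgins.

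Other zinc carriers differed between the populations. Slc39a10, an importer of the cell surface, had 8.36, 8.09, 8.36 and 8.09 in MaSC-enriched and 6.24, 6.48, 7.03 and 5.13 in luminal arrays at 12.5 dP. In virgin glands it had 8.18, 7.73 and 8.73 in MaSC-enriched and 6.80, 7.02 and 5.92 in luminal arrays. MaSC-enriched levels were higher on every array, 4-fold at 12.5 dP (adjusted p = 0.000349) and 3.09-fold in virgins (adjusted p = 0.00718), with log2 differences of 1.16 and 1.00 without background correction. Slc39a11, another member of the importer family, ran the other way. It stood at 8.80, 9.26, 9.02 and 9.04 in MaSC-enriched and 11.28, 11.53, 11.18 and 11.15 in luminal arrays at 12.5 dP, and at 8.75, 7.82 and 9.28 in MaSC-enriched and 10.80, 10.51 and 10.87 in luminal arrays of virgins. It was lower in MaSC-enriched cells by 4.76-fold at 12.5 dP (adjusted p = 4.47e-06) and 4.3-fold in virgins (adjusted p = 5.23e-05).

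At 12.5 dP, Slc39a4, Slc30a2 and Slc39a14 were also lower in MaSC-enriched than in luminal cells (log2 differences -3.08, -2.93 and -1.97), and without background correction the last pair were -1.72 and -1.03. In virgins none of them was called between the populations (0.80 for Slc39a4, -0.11 for Slc30a2, and for Slc39a14, undetected in virgin MaSC-enriched arrays, adjusted p = 0.0767). Slc39a13, an importer of the early secretory pathway, was higher in MaSC-enriched cells at 12.5 dP (log2 difference 1.22 ± 0.27, adjusted p = 0.00208) and in virgins (log2 difference 1.06 ± 0.31, adjusted p = 0.0184), the second not called in 6 of 25 alternative settings (adjusted p 0.00146 to 0.0803). A second probe of Slc39a13 was called in neither (0.85 and 0.53, adjusted p = 0.0521 and 0.341). Slc39a6, an estrogen-responsive importer in human breast cancer cells, was higher in MaSC-enriched cells of virgins (log2 difference 1.04 ± 0.27, adjusted p = 0.0093), though not with median scaling (1.03, adjusted p = 0.0615). Its difference at 12.5 dP was 0.62 (adjusted p = 0.0485), a call that 13 of 25 alternative settings did not give (adjusted p 0.0167 to 0.148 over all of them). Slc39a9 was lower in MaSC-enriched cells at 12.5 dP (at least 1.52-fold, adjusted p = 0.00447). Slc30a1, the zinc exporter of the cell surface, and Slc30a7, an exporter of the Golgi, were lower there by less than 1 log2 unit (-0.77 and -0.99), and 7 of 25 settings did not call Slc30a1 (adjusted p 0.00213 to 0.132). Slc30a4, whose loss gives the lethal milk phenotype of mice, was called in no comparison, with 7.15, 6.57, 7.75 and 6.71 in 12.5 dP luminal arrays and 6.49, 6.72 and 6.56 in virgin luminal arrays.

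The 3 tested phosphate carriers were each called in at least 1 comparison, as were 39 of the 64 tested members. The share of all genes called in any comparison was not counted, so this is no result about phosphate carriers. Slc34a2 codes for the sodium-phosphate cotransporter of apical membranes and was the only member that rose in both populations. Its levels were 9.02, 9.06, 9.18 and 8.79 in 12.5 dP luminal arrays and 7.74, 7.23 and 6.11 in virgin luminal arrays. MaSC-enriched arrays had 6.63, 6.65, 6.44 and 5.73 at 12.5 dP and 4.94, 4.83 and 4.90 in virgins, where no array detected it. The groups did not overlap in either population. The rise was 3.96-fold (log2 difference 1.98 ± 0.32, adjusted p = 0.000388) in luminal cells and at least 1.67-fold (adjusted p = 0.0163) in MaSC-enriched cells, and the second was not called in 6 of 25 alternative settings, a background offset of 50 among them (adjusted p 0.00254 to 0.0775). Without background correction the luminal difference was 1.37. MaSC-enriched levels were lower than luminal ones by 6.28-fold at 12.5 dP (adjusted p = 3.83e-06) and by at least 2.66-fold (adjusted p = 0.00019) in virgins. Of the 6 luminal markers, Elf5 (log2 difference 3.44, adjusted p = 0.000346) and Cldn3 (1.63, adjusted p = 0.00473) also rose with pregnancy in MaSC-enriched cells, and the other 4 were not called there. Their part in the rise of Slc34a2 in MaSC-enriched cells was not tested.

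Slc20a1 and Slc20a2 code for the ubiquitous sodium-phosphate cotransporters. Slc20a1 had 9.85, 9.83, 10.22 and 9.81 in 12.5 dP luminal arrays and 8.13, 7.70 and 9.42 in virgin luminal arrays. The pregnant arrays were higher and close together, and virgin replicate 3 was nearest to them. The rise was 2.85-fold (log2 difference 1.51 ± 0.45, adjusted p = 0.0288), and 7 of 25 alternative settings did not call it, among them the fits without virgin luminal replicate 1 (adjusted p = 0.113) or replicate 2 (adjusted p = 0.144). In MaSC-enriched cells it had 8.20, 8.44, 7.99 and 8.19 at 12.5 dP and 8.11, 7.78 and 9.99 in virgins, so virgin replicate 3 was again the highest virgin array. Slc20a2 fell in MaSC-enriched cells instead. It was undetected at 12.5 dP (5.30, 5.16, 5.21 and 5.07) and stood at 6.31, 6.15 and 7.33 in virgin MaSC-enriched arrays, a fall of at least 1.95-fold (adjusted p = 0.00417). Luminal arrays detected it nowhere, with 4.69, 4.65, 5.04 and 5.02 at 12.5 dP and 5.21, 4.95 and 5.13 in virgins. Virgin MaSC-enriched cells exceeded virgin luminal cells at least 1.95-fold (adjusted p = 0.000503). Slc20a2 passed the detection filter only through the virgin MaSC-enriched arrays, so its adjusted p-values are no separate support for its being high there.

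Of the 6 tested aquaporins, Aqp5 fell with pregnancy in both populations. It codes for the apical water channel of salivary, tear and airway glands. It had 8.68, 8.99, 8.85 and 8.97 in 12.5 dP luminal arrays, against 13.65, 13.08 and 12.17 in virgin luminal arrays, which were bright. In MaSC-enriched cells the levels were 6.01, 5.89, 5.82 and 6.03 at 12.5 dP and 7.12, 7.80 and 7.46 in virgins. No 2 of these 4 groups overlapped. Aqp5 fell 17.1-fold (log2 difference -4.09 ± 0.28, adjusted p = 1.22e-07) in luminal cells and 2.87-fold (log2 difference -1.52 ± 0.28, adjusted p = 0.0056) in MaSC-enriched cells. The MaSC-enriched fall was not called with chip as a block (-1.30, adjusted p = 0.061) or without background correction (-0.78, adjusted p = 0.0887). Between the populations Aqp5 was lower in MaSC-enriched cells by 7.65-fold at 12.5 dP (adjusted p = 3.38e-07) and by 45.5-fold in virgins (adjusted p = 4.49e-09). Without background correction these log2 differences were -1.81 and -4.85.

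Aqp9 codes for a channel for glycerol, urea and other small solutes as well as water, best known from liver and leukocytes. It had 5.25, 5.06, 5.08 and 4.94 in 12.5 dP MaSC-enriched arrays, against 9.35, 7.62 and 9.36 in virgin MaSC-enriched arrays, the only ones that detected it. Luminal arrays had 4.75, 5.28, 4.71 and 4.85 at 12.5 dP and 5.19, 4.95 and 4.91 in virgins. The fall in MaSC-enriched cells was at least 8.88-fold (adjusted p = 3.2e-05), and virgin MaSC-enriched cells exceeded virgin luminal cells at least 8.86-fold (adjusted p = 1.08e-06). These bounds were 5.73 and 5.72 with an offset of 50, and 3.71 and 3.7 without background correction. Aqp9 passed the detection filter only through the virgin MaSC-enriched arrays. Its adjusted p-values are therefore no separate support for its being high there. The sum of the 4 leukocyte markers on the array was 531 to 608 in 12.5 dP and 242 to 641 in virgin MaSC-enriched arrays, and Ptprc and Itgam were undetected in every group. The part of leukocyte RNA in the level of Aqp9 was not tested.

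Aqp3, a glycerol and water channel of basolateral membranes, varied widely within the virgin groups. It had 6.10, 6.66, 5.57 and 6.12 in 12.5 dP and 10.04, 5.06 and 12.25 in virgin MaSC-enriched arrays, and 9.48, 9.34, 8.38 and 9.48 in 12.5 dP and 9.59, 6.35 and 12.06 in virgin luminal arrays. In both virgin populations replicate 3 was highest and replicate 2 lowest. The mean difference with pregnancy in MaSC-enriched cells, -3.01, was within that spread (1.34 standard error, adjusted p = 0.243). Aqp11, an intracellular aquaporin, had 7.56, 7.31, 6.66 and 7.60 in 12.5 dP luminal arrays and 5.87, 6.06 and 5.93 in virgin luminal arrays, without overlap. It rose 2.51-fold (log2 difference 1.33 ± 0.24, adjusted p = 0.000912), with a difference of 0.67 without background correction. MaSC-enriched arrays had 5.46, 5.55, 5.36 and 5.13 at 12.5 dP and 5.52, 5.797 and 5.21 in virgins, near the limit of detection. Aqp8, a channel described in gland and gut epithelia, was called nowhere.

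Aqp1, the water channel of red cells and capillary endothelium, was higher in MaSC-enriched than in luminal cells at 12.5 dP (log2 difference 1.21 ± 0.43, adjusted p = 0.0345), a call that 9 of 25 alternative settings did not give (adjusted p 0.0024 to 0.18). Its groups overlapped, at 11.39, 12.15, 11.07 and 10.38 in MaSC-enriched and 9.38, 9.77, 10.81 and 10.18 in luminal arrays. In virgins the difference was 1.28 (adjusted p = 0.0663), and 2 other probes of the gene were called there (1.65 and 1.402, adjusted p = 0.0119 and 0.0376). The sum of 4 endothelial markers was 754 to 2740 in 12.5 dP and 516 to 1820 in virgin MaSC-enriched arrays. In luminal arrays that sum was 359 to 706 at 12.5 dP and 458 to 694 in virgins. MaSC-enriched Aqp1 averaged 11.25 at 12.5 dP and 12.26 in virgins, a difference that was not called (adjusted p = 0.252). Kdr was undetected in every group, and Pecam1 and Cdh5 were detected. The sum of the 2 erythroid markers on the array was 1030 to 3080 in 12.5 dP and 132 to 1330 in virgin MaSC-enriched arrays. In luminal arrays the erythroid sum was 1670 to 8880 at 12.5 dP and 1450 to 6970 in virgins. The part of endothelial or erythroid RNA in the Aqp1 level was not tested.

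**Figure D2:**
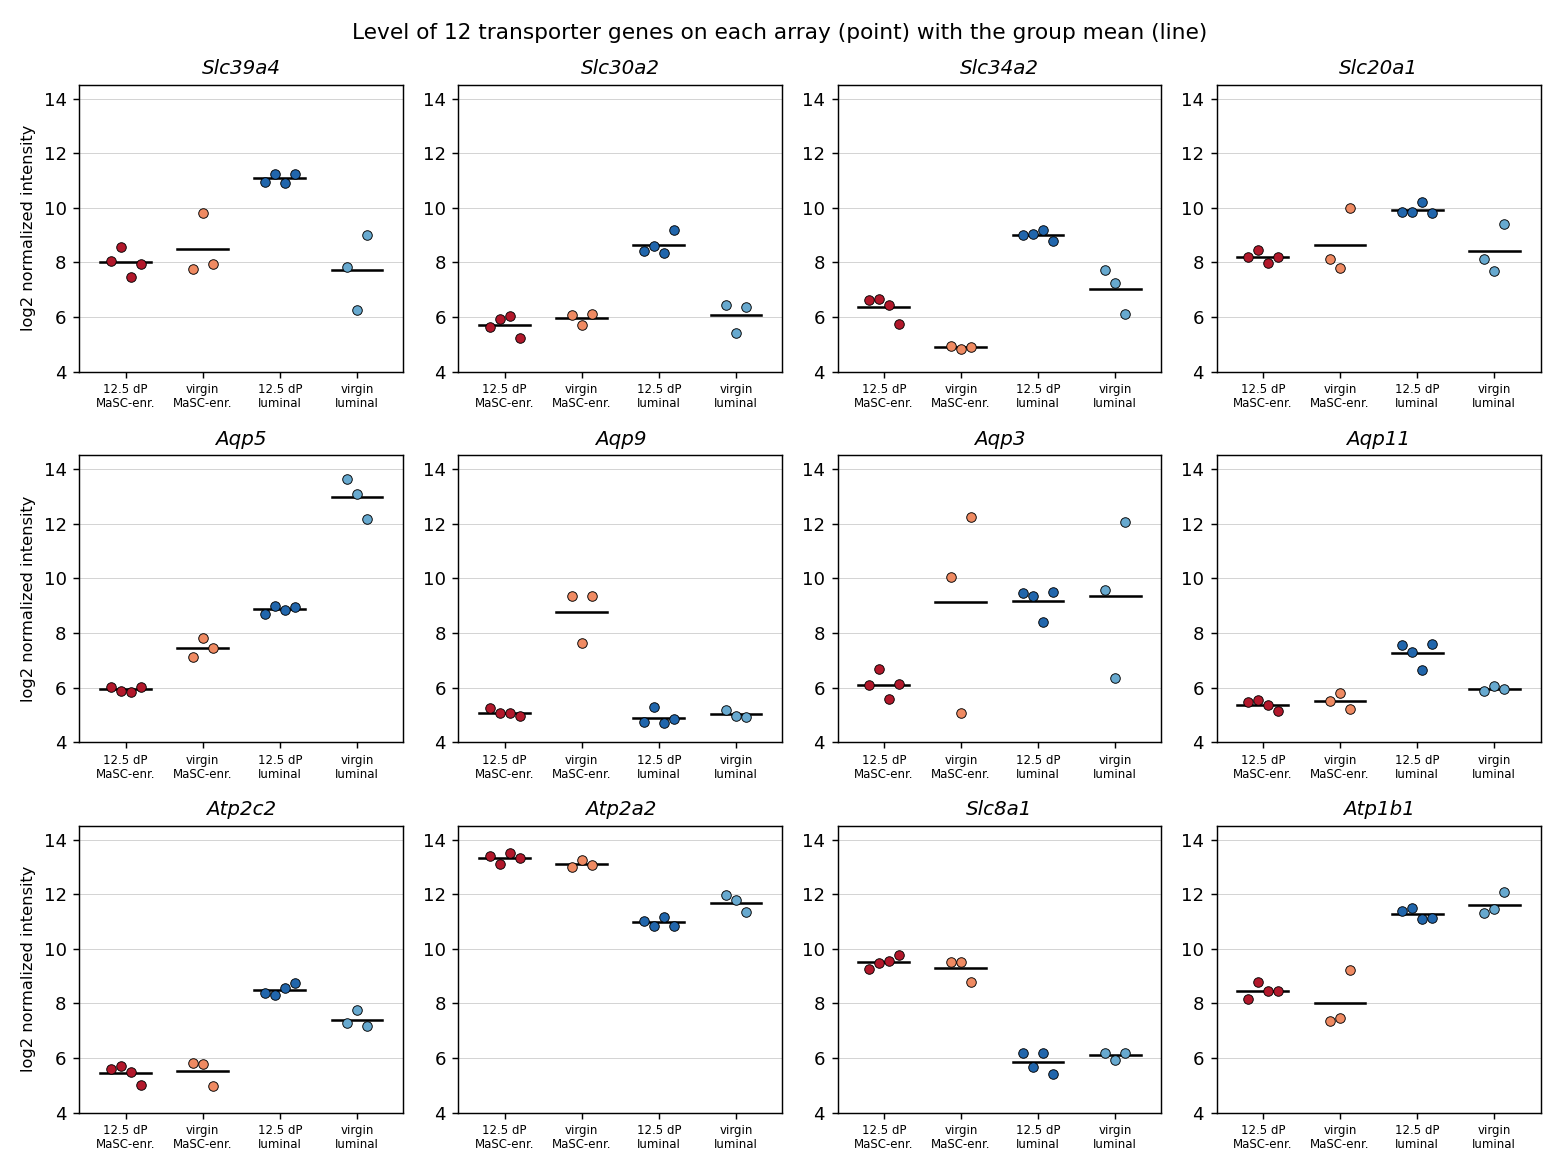
Log2 normalized intensity (vertical axis) of 12 members on each of the 14 arrays, 1 point per array, with the group mean as a line, for 12.5 dP and virgin MaSC-enriched cells and 12.5 dP and virgin luminal cells. The 12.5 dP luminal arrays of Slc39a4, Slc30a2 and Slc34a2 lie above all others of the same gene, Aqp9 is raised in virgin MaSC-enriched arrays, and Aqp3 spreads between 5.06 and 12.25 within virgin MaSC-enriched arrays.

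Of 11 tested calcium pumps and exchangers, 2 rose and 2 fell with pregnancy in luminal cells, beside 10.9% of all genes each way. In virgins 2 were higher and 2 lower in MaSC-enriched than in luminal cells, beside 15.5% and 16.6% of all genes. At 12.5 dP 2 were higher and 3 lower, beside 20.2% and 23% of all genes. These counts are no result about calcium genes as a class. Atp2c2 codes for a calcium and manganese pump of the Golgi found in secretory epithelia. It had 8.39, 8.32, 8.55 and 8.76 in 12.5 dP luminal arrays and 7.27, 7.76 and 7.16 in virgin luminal arrays. The rise was 2.16-fold (log2 difference 1.11 ± 0.25, adjusted p = 0.00529), and it was not called with median scaling (0.74, adjusted p = 0.139). MaSC-enriched arrays had 5.59, 5.72, 5.49 and 5.02 at 12.5 dP and 5.82, 5.78 and 4.97 in virgins. The populations did not overlap, and Atp2c2 was lower in MaSC-enriched cells by 8.29-fold at 12.5 dP (adjusted p = 7.33e-08) and 3.66-fold in virgins (adjusted p = 6.75e-05), and the log2 differences were -1.71 and -0.92 without background correction. Atp2c1, the widely expressed pump of the same kind, rose in luminal cells on the probe used (log2 difference 0.76 ± 0.16, adjusted p = 0.00406), while its second probe gave -0.47 with an adjusted p of 0.41 and median scaling gave 0.36 with an adjusted p of 0.398. It was lower in MaSC-enriched cells at 12.5 dP (log2 difference -1.23 ± 0.15, adjusted p = 1.21e-05) on the probe used, while the second gave -0.03 (adjusted p = 0.956).

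Atp2a2 codes for the calcium pump of the endoplasmic reticulum in most tissues. Its levels were 13.41, 13.09, 13.50 and 13.33 in MaSC-enriched and 11.03, 10.84, 11.15 and 10.85 in luminal arrays at 12.5 dP, and 12.98, 13.24 and 13.08 in MaSC-enriched and 11.97, 11.77 and 11.33 in luminal arrays of virgins. MaSC-enriched arrays were higher throughout, 5.14-fold at 12.5 dP (adjusted p = 7.37e-08) and 2.66-fold in virgins (adjusted p = 8.97e-05). In luminal cells Atp2a2 fell by less than 1 log2 unit (log2 difference -0.72 ± 0.19, adjusted p = 0.0163), a call lost without virgin luminal replicate 1 (-0.58, adjusted p = 0.0976) or replicate 2 (-0.68, adjusted p = 0.06). The third probe of Atp2a2 was not called for that fall (-0.56, adjusted p = 0.279) or between the populations in virgins (0.72, adjusted p = 0.149).

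Slc8a1 codes for the sodium-calcium exchanger of excitable and contractile cells. It was 9.27, 9.46, 9.56 and 9.77 in MaSC-enriched and 6.19, 5.66, 6.20 and 5.42 in luminal arrays at 12.5 dP. In virgins it was 9.53, 9.53 and 8.80 in MaSC-enriched and 6.19, 5.94 and 6.18 in luminal arrays. It was higher in MaSC-enriched cells at 12.5 dP, 12.5-fold (adjusted p = 9.7e-09), and was 9.07-fold higher in virgins (adjusted p = 2.41e-07). Its log2 differences, 3.65 and 3.18, were 2.38 and 2.09 without background correction, and the first was 3.04 with an offset of 50. With pregnancy it was called in neither population (0.23 in MaSC-enriched and -0.24 in luminal cells). Slc24a3, a potassium-dependent sodium-calcium exchanger, was lower in MaSC-enriched cells at 12.5 dP (log2 difference -1.17 ± 0.31, adjusted p = 0.0079).

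Atp2a1, the reticulum pump of fast skeletal muscle, had 5.82, 5.49, 5.56 and 6.02 in 12.5 dP luminal arrays and 7.39, 7.21 and 6.501 in virgin luminal arrays, and was detected on 1 of the 4 pregnant arrays. It fell 2.48-fold (log2 difference -1.31 ± 0.31, adjusted p = 0.00648) in luminal cells, with a difference of -0.62 without background correction, and MaSC-enriched cells were lower than luminal cells in virgins (log2 difference -1.22 ± 0.33, adjusted p = 0.0104), with overlapping groups and no call without virgin luminal replicate 1 (adjusted p = 0.0541). The sum of 4 skeletal muscle markers moved the same way in luminal cells, 115 to 275 at 12.5 dP and 288 to 993 in virgins. In MaSC-enriched cells that sum was 538 to 728 at 12.5 dP and 121 to 261 in virgins, while Atp2a1 had 5.94, 5.18, 5.50 and 5.33 at 12.5 dP and 5.31, 6.56 and 5.55 in virgins. Of the muscle markers, Acta1 fell with pregnancy in luminal cells (-2.71, adjusted p = 0.00423) and rose in MaSC-enriched cells (2.73, adjusted p = 0.0166). Tnnt3 was called in neither (-0.73 and 0.11, adjusted p = 0.103 and 0.889). Ckm and Myh4 did not pass the filter, and Myh4 was undetected in every group. The part of muscle RNA in the Atp2a1 values was not tested. Atp2b1, the surface calcium pump of most cells, was called nowhere, and Atp2b2, the surface pump that carries most calcium into milk during lactation, was detected on 0 arrays and not tested.

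The 3 tested subunits of the sodium-potassium ATPase were all beta subunits, which bring the pump to the surface. Each was called between the populations in both states and with pregnancy in neither population. Of all genes, 32.1% were called between the populations in virgins and 43.2% at 12.5 dP. Atp1b1 stood at 8.16, 8.79, 8.44 and 8.46 in MaSC-enriched and 11.40, 11.48, 11.10 and 11.14 in luminal arrays at 12.5 dP, and at 7.35, 7.46 and 9.21 in MaSC-enriched and 11.30, 11.45 and 12.09 in luminal arrays of virgins. It was lower in MaSC-enriched cells by 7.05-fold at 12.5 dP (adjusted p = 8.67e-06) and by 12.2-fold in virgins (adjusted p = 4.12e-06). Virgin MaSC-enriched replicate 3 was the highest of its group, and without it the virgin difference was -4.21. Of the 6 basal markers, replicate 3 was the lowest of its group in Krt5 (9.77, against 12.54 and 12.45), Trp63, Myh11 and Oxtr. It was the highest in Krt14 (14.41, against 14.14 and 14.24) and Acta2 (14.53, against 14.41 and 14.39). Of the 6 luminal markers, replicate 3 was the highest of its group in Krt8, Krt18 (12.14, against 10.81 and 11.02), Krt19 and Cldn3. In Elf5 and Gata3 it was neither highest nor lowest. The part of the cell mixture in the Atp1b1 level was not tested.

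Atp1b2, known as the beta subunit of glia and muscle, was detected on no luminal array. It had 5.86, 7.37, 7.73 and 5.36 in MaSC-enriched and 4.81, 5.004, 5.03 and 4.98 in luminal arrays at 12.5 dP, and 9.26, 7.52 and 6.31 in MaSC-enriched and 4.92, 4.79 and 4.75 in luminal arrays of virgins. MaSC-enriched cells exceeded luminal cells at least 1.7-fold (adjusted p = 0.0285) at 12.5 dP, a call that 9 of 25 alternative settings did not give (adjusted p 0.00202 to 0.102). In virgins they exceeded them at least 4.19-fold (adjusted p = 0.00294). The virgin bound was 2.44 without virgin MaSC-enriched replicate 1, 6.78 without replicate 3 and 2.22 without background correction. Atp1b3, a widely expressed beta subunit, was higher in MaSC-enriched cells at 12.5 dP (log2 difference 1.11 ± 0.22, adjusted p = 0.000785) and in virgins (log2 difference 1.38 ± 0.25, adjusted p = 0.000604).

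Of 17 tested genes for chloride, bicarbonate, proton and anion transport, 0 rose and 1 fell with pregnancy in each population. Of all genes, 10.9% rose and 10.9% fell in luminal cells, and 2.83% rose and 2.31% fell in MaSC-enriched cells. The gene called was Slc12a2 in both populations. It codes for the sodium-potassium-chloride cotransporter of basolateral membranes that feeds chloride and fluid secretion. It had 12.74, 12.68, 12.73 and 12.75 in 12.5 dP luminal arrays and 13.69, 13.54 and 14.12 in virgin luminal arrays, and 12.04, 11.79, 11.91 and 11.93 in 12.5 dP and 12.61, 12.69 and 12.51 in virgin MaSC-enriched arrays. The groups did not overlap in any of the 4 comparisons. It fell 2.08-fold (log2 difference -1.06 ± 0.18, adjusted p = 0.000513) in luminal cells. The fall in MaSC-enriched cells was -0.69 (adjusted p = 0.0381), and 15 of 25 alternative settings did not call it (adjusted p 0.00907 to 0.168). A second probe of Slc12a2 gave a larger luminal fall, -3.09 (adjusted p = 1.04e-05), and the third, dim probe gave -0.24 (adjusted p = 0.514). With pregnancy in MaSC-enriched cells neither was called (-0.69 for the second and 0.10 for the third, adjusted p = 0.284 and 0.856). On the probe used, MaSC-enriched cells were lower than luminal cells by 1.75-fold at 12.5 dP and 2.26-fold in virgins (adjusted p = 0.00102 and 0.000187), while neither other probe was called at 12.5 dP (0.32 and -0.70, adjusted p = 0.236 and 0.0885).

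Slc4a3, a chloride-bicarbonate exchanger of heart and nerve, was higher in MaSC-enriched cells. It had 8.85, 9.01, 9.35 and 9.23 in MaSC-enriched and 6.97, 6.92, 7.03 and 7.27 in luminal arrays at 12.5 dP, and 9.82, 9.77 and 8.19 in MaSC-enriched and 7.34, 7.92 and 7.86 in luminal arrays of virgins. The excess was 4.18-fold at 12.5 dP (adjusted p = 6.17e-05) and 2.93-fold in virgins (adjusted p = 0.00336). Of its 3 other probes, 1 was not called at 12.5 dP (0.48, adjusted p = 0.165). Slc12a8, named for its likeness to the cation-chloride cotransporters, ran the same way, with 7.48, 7.57, 7.66 and 7.77 in MaSC-enriched and 6.06, 5.97, 5.47 and 4.92 in luminal arrays at 12.5 dP and 7.90, 8.05 and 7.71 in MaSC-enriched and 6.08, 6.70 and 6.19 in luminal arrays of virgins. Its excess was 4.04-fold at 12.5 dP (adjusted p = 7.91e-06) and 2.95-fold in virgins (adjusted p = 0.000507), with log2 differences of 1.02 and 0.89 without background correction. The scaffold gene Slc9a3r1, whose protein anchors apical carriers to the cytoskeleton, was lower in MaSC-enriched cells. It had 11.005, 10.90, 10.87 and 10.57 in MaSC-enriched and 12.78, 12.77, 12.64 and 12.85 in luminal arrays at 12.5 dP, and 10.75, 10.38 and 10.12 in MaSC-enriched and 12.40, 12.43 and 12.15 in luminal arrays of virgins. The differences were 3.8-fold at 12.5 dP (adjusted p = 4.97e-07) and 3.76-fold in virgins (adjusted p = 3.46e-06).

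Smaller differences were found in Slc26a6, an anion exchanger, undetected in luminal cells and higher in MaSC-enriched cells at 12.5 dP (at least 1.19-fold, adjusted p = 0.000684) and in virgins (at least 1.4-fold, adjusted p = 0.00675). Slc4a4, a sodium-bicarbonate cotransporter, was higher in MaSC-enriched cells of virgins (log2 difference 1.06 ± 0.32, adjusted p = 0.0222), where 4 of 25 alternative settings did not call it (adjusted p 0.00964 to 0.0857). Slc12a4, a potassium-chloride cotransporter, was higher in MaSC-enriched cells at 12.5 dP (log2 difference 1.10 ± 0.32, adjusted p = 0.012), but its groups overlapped and within chip 4 the difference was -0.19. The chloride transporter gene Slc26a9, called lower in MaSC-enriched cells of virgins (at least 1.19-fold, adjusted p = 0.0113), and Slc9a2, a sodium-proton exchanger called lower at 12.5 dP (at least 1.13-fold, adjusted p = 0.00317), were detected on no MaSC-enriched array of those groups.

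Among the 6 carriers of iron, manganese and magnesium, Slc11a2 rose and Slc41a2 fell in luminal cells. Slc11a2 codes for the proton-coupled importer of ferrous iron. It had 9.15, 9.58, 9.32 and 9.89 in 12.5 dP luminal arrays and 8.11, 7.68 and 8.51 in virgin luminal arrays, without overlap. The rise was 2.61-fold (log2 difference 1.38 ± 0.29, adjusted p = 0.00345), and its other probes gave 1.91 and 2.73 (adjusted p = 0.000105 and 0.000151). MaSC-enriched arrays had 7.99, 7.92, 8.53 and 8.32 at 12.5 dP and 7.67, 7.38 and 8.53 in virgins, and MaSC-enriched cells were lower than luminal cells at 12.5 dP (log2 difference -1.29 ± 0.27, adjusted p = 0.00146). Slc41a2, a magnesium carrier, had 5.85, 6.23, 5.40 and 4.81 in 12.5 dP luminal arrays and 8.04, 6.82 and 8.68 in virgin luminal arrays. It fell 4.84-fold (log2 difference -2.28 ± 0.59, adjusted p = 0.0126), a call lost without virgin luminal replicate 1 (-2.18, adjusted p = 0.0528) or replicate 3 (-1.86, adjusted p = 0.0651), and the difference was -1.24 without background correction. MaSC-enriched arrays had 6.63, 6.87, 7.12 and 7.54 at 12.5 dP and 8.09, 6.09 and 9.15 in virgins, and the excess over luminal cells at 12.5 dP (log2 difference 1.47 ± 0.54, adjusted p = 0.0436) was not called in 12 of 25 alternative settings (adjusted p 0.00333 to 0.129).

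Slc40a1, the iron exporter, had 8.03, 7.85, 8.09 and 6.79 in 12.5 dP luminal arrays and 8.89, 10.15 and 7.96 in virgin luminal arrays, and the groups overlapped (log2 difference -1.31 ± 0.59, adjusted p = 0.145). Slc41a1, another magnesium carrier, and Slc11a1, the metal carrier of macrophage phagosomes, were called in no comparison on the probes used. A second, dimmer probe of Slc11a1 was called higher in MaSC-enriched cells at 12.5 dP (1.74, adjusted p = 0.0391) and in virgins (3.38, adjusted p = 0.00237).

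**Figure D3:**
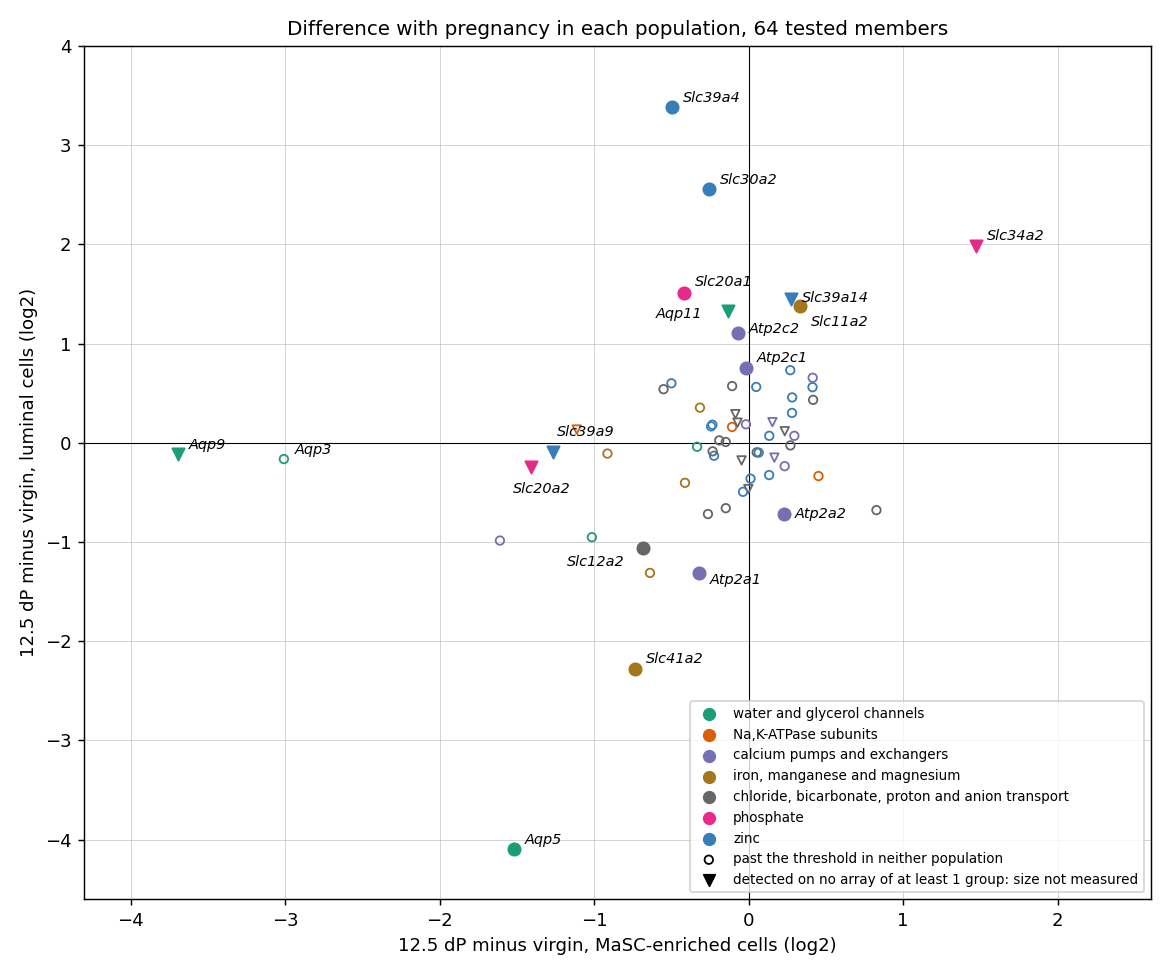
Log2 difference between 12.5 dP and virgin arrays in MaSC-enriched cells (horizontal axis) and in luminal cells (vertical axis) for the 64 tested members, 1 point per gene coloured by role, filled where the gene was called in either population. Slc39a4 and Slc30a2 lie high on the luminal axis and near 0 on the other, Aqp5 is low on both, and triangles mark members such as Aqp9 that no array of at least 1 group detected, whose position is a fitted value and not a measured size.

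More members were called between the populations than between the states. At 12.5 dP, 13 of 64 members were higher in MaSC-enriched than in luminal cells (20.3%) and 20 were lower (31.2%), beside 20.2% of all genes called higher and 23% called lower. In virgin glands 14 were higher (21.9%) and 9 lower (14.1%), beside 15.5% and 16.6% of all genes. The median difference of the members was -0.14 at 12.5 dP and 0.06 in virgins, against -0.10 and -0.04 over all genes. Of the 39 members called in at least one of these comparisons, 17 were called in both, all in the same direction, 10 higher and 7 lower in MaSC-enriched cells. Of all genes, 32.1% were called in virgins and 43.2% at 12.5 dP, and those called in both were not counted. The 17 is thus no result about the members. The arrays of the populations did not overlap in 35 of 64 members at 12.5 dP (54.7%, against 50% of all genes) and in 27 in virgins (42.2%, against 37.7%).

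**Figure D4:**
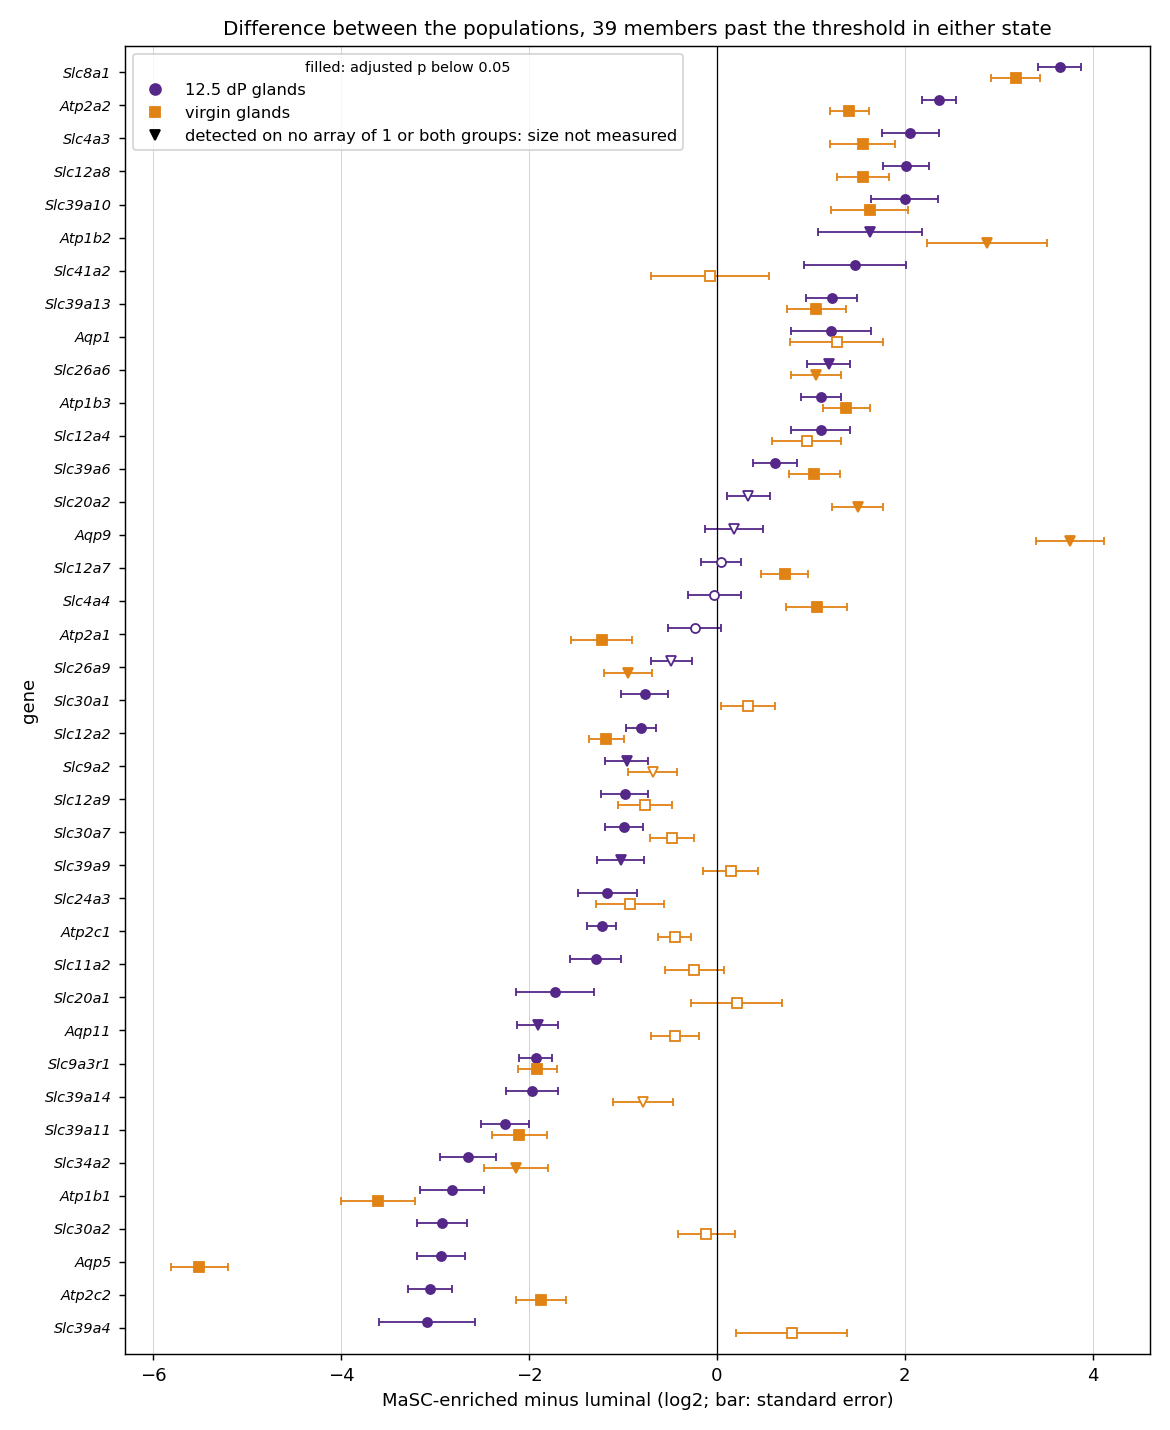
Log2 difference between MaSC-enriched and luminal cells (horizontal axis, with its standard error) for the 39 members called at 12.5 dP (circles) or in virgins (squares), filled where called, ordered by the difference at 12.5 dP, with triangles where no array of 1 or both groups detected the gene and the fitted value is not a measured size. Slc8a1 is at the top with 3.65 and 3.18, and Slc39a4 is at the bottom with -3.08 at 12.5 dP beside an uncalled 0.80 in virgins.

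Whether pregnancy acted differently in the populations was tested with the interaction, which is the pregnancy difference of MaSC-enriched cells less the one of luminal cells. It was called positive for 2 of 64 members (3.12%) and negative for 4 (6.25%), beside 5.37% and 3.39% of all genes. Median scaling gave 1 positive and 4 negative members and moved the median over all genes to 0.10. The negative ones were Slc39a4 (log2 difference -3.88 ± 0.78, adjusted p = 0.00617), Slc30a2 (log2 difference -2.82 ± 0.41, adjusted p = 0.000605), Aqp9 (adjusted p = 0.00031) and Aqp11 (adjusted p = 0.014), the last pair with no size given because at least 1 of their groups was undetected. Aqp11 was not called with chip as a block (adjusted p = 0.086) or with median scaling (adjusted p = 0.0598). For Slc39a4, Slc30a2 and Aqp11 the luminal rise had no counterpart that was called in MaSC-enriched cells. For Aqp9 the fall was in MaSC-enriched cells, with luminal cells undetected in both states. Aqp9 passed the detection filter only through virgin MaSC-enriched arrays, so its adjusted p is no separate support here. The positive ones were Aqp5 (log2 difference 2.57 ± 0.40, adjusted p = 0.000931), which fell in both populations, and Atp2a2 (log2 difference 0.95 ± 0.28, adjusted p = 0.0487), which 15 of 25 alternative settings did not call (adjusted p 0.00839 to 0.174). The interaction of Slc34a2, undetected in virgin MaSC-enriched arrays, was not called (adjusted p = 0.565), which does not show that its rises were alike. That of Slc11a2 was not called on the probe used (adjusted p = 0.154) and was on its other probes (-2.27 and -1.73, adjusted p = 0.0207 and 0.00973). The interaction of Slc39a4 ranged between -4.53 without virgin luminal replicate 3 and -3.16 without virgin luminal replicate 2, and was -2.72 with chip as a block. That of Slc30a2 was -1.66 without background correction, and that of Aqp5 was 3.20 with array weights.

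Of the 64 tested members, 25 were called in no comparison on the probe used (other probes of Slc11a1 and Slc39a7 were called). Among the 25 were 8 zinc carriers, Atp2a3 of the reticulum pumps and Slc4a2, a widely expressed chloride-bicarbonate exchanger. The share of all genes called in no comparison was not counted, so these counts are no result about the members. The 38 untested members included Aqp4, Slc26a2 and Slc39a8, each detected on 0 arrays, and 28 of the 38 were detected on none. Among 18 members with several tested probes, 25 calls were made, of which 13 were called in the same direction by all probes of the gene and 12 by some, with no probe called the opposite way.

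Other genes of ion and metal handling were described from 3 lists that share no gene with the members. Of 34 tested epithelial channels and their regulators, 5 rose and 5 fell in luminal cells at 12.5 dP, and 2 rose and 1 fell in MaSC-enriched cells. For these lists the shares of all genes are those given above, 10.9% called higher and 10.9% called lower in luminal cells and 2.83% and 2.31% in MaSC-enriched cells, and a count near them is no result about the list. Fxyd2, a regulator of the sodium-potassium pump, was lower in MaSC-enriched than in luminal cells at 12.5 dP (log2 difference -4.05 ± 0.38, adjusted p = 5.87e-07) and in virgins (log2 difference -4.59 ± 0.44, adjusted p = 1.02e-06). Scnn1b and Scnn1a, subunits of the epithelial sodium channel, were lower there as well at 12.5 dP (log2 difference -4.14 ± 0.36, adjusted p = 3.05e-07 for Scnn1b and log2 difference -1.74 ± 0.44, adjusted p = 0.00553 for Scnn1a). Scnn1a averaged 7.24 ± 0.83 in 12.5 dP luminal arrays and 10.19 ± 0.34 in virgin luminal arrays (SD, n = 4 and 3), a fall (log2 difference -2.95 ± 0.48, adjusted p = 0.000409). Car2, a cytosolic carbonic anhydrase, rose in MaSC-enriched cells (log2 difference 2.84 ± 0.53, adjusted p = 0.0056) and in luminal cells (log2 difference 2.75 ± 0.53, adjusted p = 0.00157).

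Of 18 tested genes for calcium entry, stores and binding, 1 rose and 5 fell in luminal cells and 2 fell in MaSC-enriched cells. Stc2, a secreted glycoprotein that inhibits store-operated calcium entry, averaged 7.65 ± 0.32 in 12.5 dP luminal arrays and 13.52 ± 0.74 in virgin luminal arrays (log2 difference -5.87 ± 0.33, adjusted p = 1.78e-08). Trpc6, a calcium-permeable channel, fell in luminal cells too (log2 difference -3.75 ± 0.42, adjusted p = 1.43e-05), and Stim1, the calcium sensor of the reticulum, fell there (log2 difference -1.92 ± 0.22, adjusted p = 1.68e-05). Trpv4, an osmosensitive channel, was higher in MaSC-enriched than in luminal cells at 12.5 dP (at least 6.61-fold, adjusted p = 4.72e-08).

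Of 24 tested metal binding, carrier and copper genes, 6 rose and 3 fell in luminal cells and 1 rose in MaSC-enriched cells. Tfrc, the transferrin receptor, had the largest of these luminal rises (log2 difference 2.36 ± 0.32, adjusted p = 9.48e-05) and was named after its values were seen. Ltf, the iron-binding milk protein lactoferrin, was lower in MaSC-enriched than in luminal cells at 12.5 dP (log2 difference -3.25 ± 0.35, adjusted p = 2.71e-06) and in virgins (log2 difference -3.43 ± 0.40, adjusted p = 9.4e-06). Steap1 and Steap2, members of a family of metalloreductases, fell in luminal cells (log2 difference -1.42 ± 0.22, adjusted p = 0.000335 for Steap1 and log2 difference -2.23 ± 0.32, adjusted p = 0.000145 for Steap2). Cd320, the receptor for cobalamin-carrying transcobalamin, rose in luminal cells (log2 difference 1.24 ± 0.19, adjusted p = 0.00024). The list medians in luminal cells were 0.19 for channels, -0.06 for calcium genes and 0.13 for metal genes, beside 0.05 over all genes.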

How the data were processed

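Sorted mammary cells were profiled on 14 Illumina arrays in 4 groups, taken from the sample labels. The deposited table gave a non-normalized probe intensity and a detection p-value for each array, and the deposited series matrix gave the authors' normalized log2 values. BeadStudio and limma are named, without versions, in the submitters' processing notes. With an offset of 50, the processing below matched the matrix to a median absolute difference of 0.00477.

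Intensities were background corrected by normexp with limma 3.58.1 (R 4.3.3), the background being inferred from the detection p-values, with 16 added to each value. Quantile normalization between arrays and log2 followed. Probes with a detection p below 0.05 on at least 3 arrays were tested, 20906 of 45281. Symbols came from the platform annotation, in which 10378 probes had none and 18 had several. The tested probe of highest mean stood for a gene, which gave 11350 genes. Of 25 calls in members with several tested probes, 12 had a probe that was not called, and 0 members had called probes of opposite sign. A linear model with 1 mean per group (10 residual degrees of freedom, 4.74 prior) gave the differences and the interaction by limma's moderated test, with Benjamini-Hochberg adjustment over all tested probes and a threshold of 0.05. The method was tested on simulated data. Precision is limited by 3 or 4 arrays a group.

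Where a gene was detected on no array of 1 group, its fold is a bound: the other group's mean was set against the mean, over the undetected group's arrays, of the higher of the gene's own value and the lowest signal among detected tested probes. Members named with every array were, in each comparison, up to 6 of the largest called rises and 6 of the largest called falls without overlap, and called interactions up to 8. Other called members of at least 1 log2 unit, a list of 30 transporter genes named whatever their values, and up to 4 genes from each list of other physiology genes were also named. The members and lists were chosen with earlier results of these data known.

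Promoter sequences came from RefSeq (GRCm38.p6). The motifs were chosen with the results known. The metal response core was first searched in a looser form, TGCNCNC, and narrowed after its first counts were seen. Both starts listed for Aqp9 were looked at, and the upstream one is shown; the downstream one held no match. Alternatives changed the offset, background correction, scaling, filter, probe choice, array weights, chip and pool terms, and each array was left out in turn.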

Additional observations from a re-analysis of the deposited data

Results flagged for a closer look

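In 6 members the difference with pregnancy was not the same in MaSC-enriched and luminal cells by the interaction test. The interactions, MaSC-enriched minus luminal in log2 units, were -3.88 for Slc39a4, -3.58 for Aqp9, -2.82 for Slc30a2, -1.46 for Aqp11, 2.57 for Aqp5 and 0.95 for Atp2a2. The values for Aqp9 and Aqp11 are fitted ones that rest on groups in which no array detected the gene, and they are not measured sizes.

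In 4 of 80 groups checked, 1 array stood apart from the other 3 by Dixon's test, and chance sets apart about 1 in 20. The values apart were 8.38 for Aqp3 and 10.22 for Slc20a1 on 12.5 dP luminal replicate 3, 6.23 for Slc12a4 on 12.5 dP MaSC-enriched replicate 4 and 6.42 for Slc12a4 on 12.5 dP luminal replicate 4. Both Slc12a4 arrays lay on chip 4, where the difference between the populations at 12.5 dP was -0.19, against 1.10 over all arrays.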

How the results depend on the processing

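Of 82 calls of a member, 59 held in every alternative fit that tested them and 23 were lost in at least 1 of 25, and none of these fits turned a direction. Within chips, called members kept their direction except Slc12a4 at 12.5 dP on chip 4 (-0.19). For pregnancy in MaSC-enriched cells only chip 4 held both groups, with 1 array of each. The calls of that comparison therefore had little check within chips. Array weights gave 3 called members for pregnancy in MaSC-enriched cells against 6, 27 in luminal cells against 14, and 11 for the interaction against 6, and the mean of all probes gave 10 for the interaction. The interaction count ran from 5 to 12 when 1 array was left out, with 12 without virgin MaSC-enriched replicate 2. Without that array 1229 of all genes were called for pregnancy in MaSC-enriched cells against 583, and 1613 for the interaction against 994. Without 12.5 dP MaSC-enriched replicates 2, 3 and 4 the first of these counts was 313, 366 and 367, and with array weights 352. Array weights called 5271 of all genes for pregnancy in luminal cells against 2469 and 1649 for the interaction. The labels do not say whether samples of the 2 populations with the same replicate number came from the same pool of mice. The numbers were therefore not used as pairs in the main fit. The correlation of deviations within a presumed pool was over 0.1 in 2 of 7 pools (-0.168 to 0.424). Both were virgin pools, at 0.424 and 0.38, and the correlations do not settle whether pools were shared. With pool as the replicate block (random for the pregnancy comparisons, fixed for the others), 6, 14, 28, 35 and 8 members were called for pregnancy in MaSC-enriched cells, pregnancy in luminal cells, the populations in virgins, the populations at 12.5 dP and the interaction, against 6, 14, 23, 33 and 6 without it. Of the 82 differences behind these calls, 81 were smaller with an offset of 50, 81 without background correction and 81 in the deposited series matrix values, and 9, 43 and 6 of the 82 moved by over 1.5 times in fold. The cause of these changes was not tested.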
